A study of Mus musculus with 24 samples.

Results

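Radial glia and neural stem markers are genes whose RNA is used to recognise the progenitor cells of the developing brain, and 9 of them were followed here through mouse embryonic stem cells (mESC) and the neural progenitor cells (NPC) derived from them. The members were taken by symbol, as the rows named Nes, Vim, Fabp7, Sox9, Sox1, Hopx, Prom1, Msi1 and Ttyh1 in both expression tables. A list of 10 names gave 9 genes, because Blbp is another name of Fabp7. They stand among 17501 genes in the mESC table and 16024 in the NPC table. The rule uses symbols and no measured value, but the list of names was drawn up with earlier results of these data known.

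The study measured RNA in 24 libraries, 2 for each of 6 genotypes of Htt, the gene of Huntington's disease, in each cell type. Wild type is written WT and Htt knockout KO. The knock-in lines form an allelic series of heterozygous Hdh (Htt) alleles whose CAG repeat, which encodes polyglutamine, is 20, 50, 92 or 111 repeats long by the sample titles (Q20, Q50, Q92 and Q111); the culture description gives 89 for the third line. The knock-in mESC were grown with serum and leukemia inhibitory factor on gelatin over a feeder layer of mouse embryonic fibroblasts (MEF), and NPC were made by plating mESC in N2B27 medium and then expanding them on laminin with FGF and EGF. Each knock-in allele was represented by a single named line per cell type, so an effect of the repeat cannot be told apart from a difference between lines. The 2 libraries of a group are described as biological samples, but no label ties them to separate derivations, so p-values measure the spread between these libraries. In bulk RNA, fewer cells of a type and less RNA per cell cannot be told apart.

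Radial glia are elongated cells that span the wall of the embryonic brain, divide at its inner surface and give rise to neurons and later to glia. They carry intermediate filaments made of nestin and vimentin, a brain form of fatty acid binding protein, and transcription factors of the Sox family that hold the progenitor state. Cultured neural stem cells grown in FGF and EGF keep many of these genes on, and astrocytes retain several of them.

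Levels below are normalised read counts scaled to library size, which the authors name CPM, and changes are differences of log2(CPM + 1) with their standard error (SE), tested with limma and adjusted by Benjamini-Hochberg over all genes of the cell type. A gene is said to have risen, fallen or changed where the adjusted p was under 0.05. The depth was 58546211 to 81502284 reads per mESC library and 48525333 to 118038952 per NPC library, recovered from the deposited values. Htt itself read 137 and 177 CPM in WT NPC, 100 and 94.9 CPM in KO NPC, and 137 to 184 CPM in the knock-in NPC libraries. In mESC it read 124 and 113 CPM in WT and 139 and 68.5 CPM in the libraries labelled KO, so the library labelled KO replicate 1 was not below WT. The pluripotency factor Pou5f1 read 280 to 880 CPM in mESC, and 90.1 and 87.4 CPM in the Q20 NPC against at most 0.405 CPM in the other NPC libraries. Stmn2, a gene of neurons that also read 173 to 391 CPM in mESC, was at 103 and 128 CPM in the Q20 NPC. It was at 5.51 CPM or less in the other NPC libraries. Other neuron markers did not all do the same. Dcx was also highest in the Q20 NPC, at 38.6 and 52.2 CPM. Map2 was lowest there, at 599 and 646 CPM, and Syt1 was highest in Q111 NPC, at 17.7 and 16.2 CPM. The 8 neuron markers summed to 793 and 973 CPM in Q20 NPC and to 1638 and 1260 CPM in WT NPC. The Q20 NPC therefore stood apart from the other NPC. Every comparison with Q20 NPC rests on these 2 libraries.

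The members lie on 7 chromosomes of the GRCm38 assembly, and each is a protein-coding gene. Nes (ENSMUSG00000004891, chr3:87971078-87980451, plus strand, 4 exons) encodes nestin. Vim (ENSMUSG00000026728, chr2:13573927-13582826, plus strand, 9 exons) encodes vimentin. Fabp7 (ENSMUSG00000019874, chr10:57784881-57788450, plus strand, 3 exons) encodes the brain fatty acid binding protein. The transcription regulators were Sox9 (ENSMUSG00000000567, chr11:112782224-112787760, plus strand, 3 exons), Sox1 (ENSMUSG00000096014, chr8:12395295-12400126, plus strand, 1 exon) and Hopx (ENSMUSG00000059325, chr5:77086988-77115121, minus strand, 3 exons). Membrane proteins are encoded by Prom1 (ENSMUSG00000029086, chr5:43993620-44102032, minus strand, 25 exons) and Ttyh1 (ENSMUSG00000030428, chr7:4119408-4136708, plus strand, 14 exons), and Msi1 (ENSMUSG00000054256, chr5:115429599-115455698, plus strand, 15 exons) encodes an RNA-binding protein. Whether the authors' counting used the strand is not given in the sources used here. Exons of Hopx, Prom1 and Ttyh1 overlap antisense genes (Hopxos for Hopx, Gm16401 for Prom1, 9430041J12Rik and D030047H15Rik for Ttyh1), so reads of these pairs cannot be told apart. Sox1 shares its strand with an overlapping exon of Gm25239.

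Promoter sequences are shown for the 2 filament genes, whose patterns over the NPC libraries were the closest among the members, for Fabp7, which differed most between the cell types, and for Ttyh1, which fell most along the knock-in series. Each line gives the 250 bases before the RefSeq transcription start on GRCm38.p6, read 5′ to 3′ on the gene's strand. The windows are chr2:13574061-13574310 for Vim, chr3:87970843-87971092 for Nes, chr10:57784673-57784922 for Fabp7 and chr7:4119280-4119529 for Ttyh1, all on the plus strand. Capitals mark matches to the motifs searched.
Vim: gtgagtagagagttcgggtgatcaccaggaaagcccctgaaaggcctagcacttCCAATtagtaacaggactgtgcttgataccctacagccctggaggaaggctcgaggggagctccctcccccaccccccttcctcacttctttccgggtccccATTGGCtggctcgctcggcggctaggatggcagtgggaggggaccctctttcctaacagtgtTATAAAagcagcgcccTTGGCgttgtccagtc
Nes: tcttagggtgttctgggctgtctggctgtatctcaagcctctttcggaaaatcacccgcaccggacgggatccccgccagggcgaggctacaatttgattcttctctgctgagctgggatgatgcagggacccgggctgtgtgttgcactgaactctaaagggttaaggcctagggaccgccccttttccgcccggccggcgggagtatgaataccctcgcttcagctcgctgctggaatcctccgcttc
Fabp7: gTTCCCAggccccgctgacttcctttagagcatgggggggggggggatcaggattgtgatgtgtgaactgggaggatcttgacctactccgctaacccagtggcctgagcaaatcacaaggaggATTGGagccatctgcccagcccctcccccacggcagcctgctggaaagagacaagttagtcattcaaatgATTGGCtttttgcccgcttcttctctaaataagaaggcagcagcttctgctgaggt
Ttyh1: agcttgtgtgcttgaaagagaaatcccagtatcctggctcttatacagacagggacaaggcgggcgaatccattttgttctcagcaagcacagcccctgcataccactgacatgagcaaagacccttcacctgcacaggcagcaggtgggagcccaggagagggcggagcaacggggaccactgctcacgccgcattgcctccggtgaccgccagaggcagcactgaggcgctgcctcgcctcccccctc

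The motifs were searched on both strands as fixed letters: ACAAAG (SOX), TGGGAA (RBPJ), TTGGC (an element of NFI sites), CCAAT (the CCAAT box), TATAAA (the TATA box), ATTTGCAT (the POU octamer) and CAGCTG (an E-box). The Vim window held TATAAA from 32 to 27 bases before the start, CCAAT at 2 places and TTGGC at 2 places. The Fabp7 window held TGGGAA once, TTGGC once and CCAAT at 2 places. In both windows 1 CCAAT on the minus strand overlaps 1 TTGGC on the plus strand, as the run ATTGGC. The Nes and Ttyh1 windows held none of the 7 motifs, which says only that these letters are not in these windows. Over all 32841 RefSeq windows of the same length, TATAAA was found in 12.4%, CCAAT in 33.9%, TTGGC in 41.5%, TGGGAA in 21.6%, ACAAAG in 16.5%, CAGCTG in 13% and ATTTGCAT in 1.60%. Of the 9 members 7 had a RefSeq window in the table used. Sox9 and Msi1 are named only.

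Scaled by exonic length, the carrier protein and the filament genes led the members in NPC. The median over the 12 NPC libraries was 1364 CPM per kb for Fabp7, 430 for Vim and 126 for Nes, followed by 25.0 for Ttyh1, 12.3 for Sox9 and 7.57 for Hopx. Prom1 at 3.66, Msi1 at 3.27 and Sox1 at 1.03 CPM per kb were the lowest. In mESC the order was different, with Vim first at 29.7 CPM per kb, Nes at 8.01, Hopx at 4.77 and Prom1 at 3.45. Ttyh1 read 1.61, Msi1 0.927, Sox1 0.769, Fabp7 0.241 and Sox9 0.0458 CPM per kb there. The tables of the 2 cell types were normalised separately, so their levels are set side by side and were not tested. The NPC median was 5657 times the mESC median for Fabp7 and 268 times for Sox9. It was 15.7 times for Nes, 15.6 for Ttyh1 and 14.5 for Vim. Msi1 at 3.53, Hopx at 1.59, Sox1 at 1.34 and Prom1 at 1.06 times were nearer in the 2 tables.

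Nestin RNA was lowest in Q20 NPC and highest in Q92 NPC. Nes read 470 and 1105 CPM in WT, 517 and 950 in KO, 353 and 393 in Q20, 606 and 914 in Q50, 1273 and 1225 in Q92, and 814 and 803 in Q111. Both Q20 libraries were below, and both Q92 libraries above, every other NPC library. WT, KO, Q50 and Q111 overlapped one another, and in WT, KO and Q50 replicate 2 was above replicate 1.

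Vimentin RNA separated the genotypes more cleanly. Vim read 1189 and 1530 CPM in WT, 1912 and 1824 in KO, 907 and 926 in Q20, 2218 and 2862 in Q50, 2417 and 2815 in Q92, and 2166 and 2164 in Q111. In order of the mean, Q92 and Q50 overlapped, and then Q111, KO, WT and Q20 each lay below the group before it with no overlap. Over the 12 libraries the centred log2 levels of Nes and Vim differed by a root mean square of 0.39, the smallest distance between 2 members, and 2.66% of the other genes were closer to Nes than Vim was.

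Fabp7, the brain fatty acid binding protein that marks radial glia, was highest in Q50 NPC on average. It read 2499 and 1974 CPM in WT, 3371 and 1569 in KO, 1194 and 1266 in Q20, 3921 and 3188 in Q50, 1817 and 1593 in Q92, and 1222 and 1539 in Q111. The KO libraries lay far apart and overlapped Q50, WT and Q92. Q20 and Q111 overlapped at the low end, and Q92 lay below WT and above Q111.

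**Figure D1:**
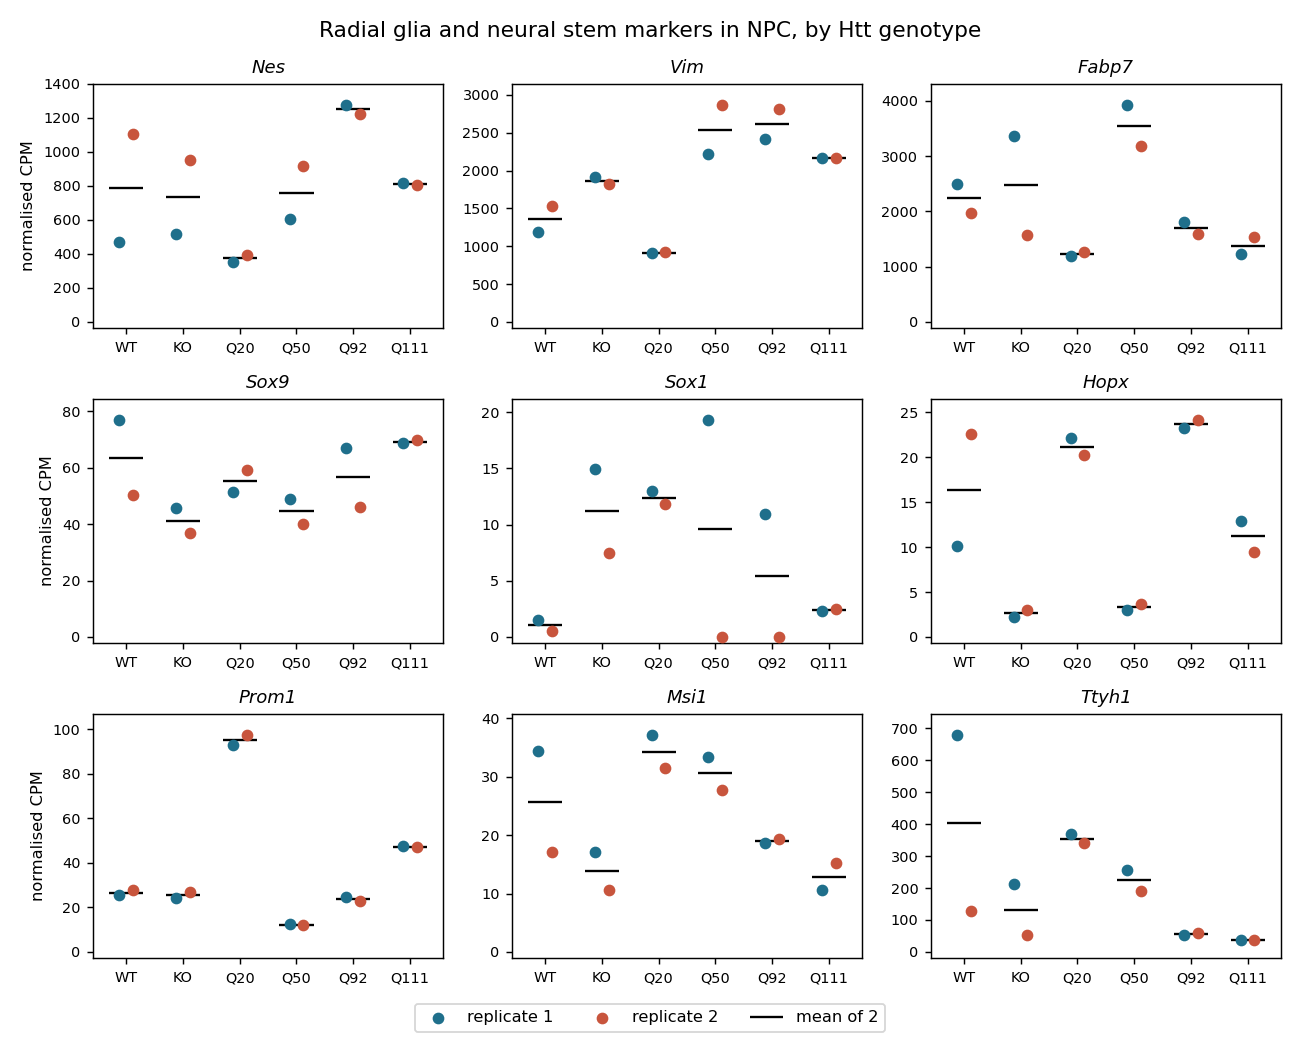
Normalised CPM (linear axes, 1 panel per gene) of the 9 marker genes in NPC by Htt genotype; points are single libraries, coloured by replicate number, and bars are means of 2. Prom1 stands at 93.1 and 97.3 CPM in Q20 and at 12.0 to 12.7 CPM in Q50, and Ttyh1 spreads from 127 to 677 CPM within WT while both Q111 libraries lie below 39 CPM.

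The transcription regulators were less abundant. Sox9, a SOX factor of neural stem cells and later of astrocytes, read 76.8 and 50.3 CPM in WT NPC, 45.8 and 36.7 in KO, 51.3 and 59.1 in Q20, 48.9 and 40.0 in Q50, 67.0 and 46.1 in Q92, and 68.6 and 69.7 in Q111. KO and Q50 were lowest, and both lay below the other 4 genotypes on average, though Q50 overlapped Q92. Sox1, one of the first SOX factors switched on in the neural plate, varied most between libraries of the same genotype. It read 1.49 and 0.565 CPM in WT, 15.0 and 7.43 in KO, 13.0 and 11.8 in Q20, 2.27 and 2.51 in Q111, but 19.3 and 0 in Q50 and 10.9 and 0 in Q92. A count of 0 allows up to 3 reads, which is 0.0265 to 0.0580 CPM over the NPC libraries, counting error only. No genotype difference of Sox1 passed the test (F test over the 6 genotypes, limma adjusted p = 0.457).

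Hopx, a homeodomain-only protein found in outer radial glia and quiescent stem cells, split the NPC genotypes into a low and a high set. It read 10.1 and 22.7 CPM in WT, 22.1 and 20.2 in Q20, 23.3 and 24.1 in Q92, and 12.9 and 9.5 in Q111. It read 2.22 and 3.01 CPM in KO and 3.00 and 3.70 in Q50. Every KO and Q50 library was below every library of the other 4 genotypes. WT overlapped Q111 and Q20.

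The membrane protein genes differed in how closely their replicates lay. Prom1, whose replicates were close in every NPC genotype, encodes prominin (CD133), a protein of membrane protrusions and of the apical surface of neural progenitors. It read 25.4 and 28.0 CPM in WT NPC, 24.2 and 27.1 in KO, 93.1 and 97.3 in Q20, 12.7 and 12.0 in Q50, 24.9 and 23.0 in Q92, and 47.6 and 47.1 in Q111. Q20 lay above Q111, Q111 above all of WT, KO and Q92, and Q50 below the rest, with no overlap at these steps.

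Ttyh1, a tweety family membrane protein of neural stem cells and glia, read 677 and 127 CPM in WT NPC, 211 and 52.1 in KO, 368 and 340 in Q20, 255 and 192 in Q50, 54.4 and 58.0 in Q92, and 38.4 and 36.1 in Q111. In WT and KO replicate 1 was far above replicate 2. Among the knock-in lines the 4 groups followed the order of the repeat with no overlap. Msi1, the RNA-binding protein Musashi-1 that keeps progenitors from differentiating by holding back translation, read 34.3 and 17.0 CPM in WT, 17.2 and 10.6 in KO, 37.1 and 31.5 in Q20, 33.3 and 27.8 in Q50, 18.7 and 19.3 in Q92, and 10.6 and 15.2 in Q111. KO and Q111 were lowest and overlapped, and Q20 was highest on average and overlapped Q50.

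In Htt knockout NPC, Hopx was the member that fell. It changed by -2.17 ± 0.34 (log2, SE) in KO against WT, with 2 libraries in each group (limma adjusted p = 0.0268), and both KO libraries were below both WT libraries. It was 1 of 9 members past the threshold, where 1.42% of all 13206 genes tested were. The call was lost without KO replicate 1 (adjusted p = 0.0997), without KO replicate 2 (0.0629) and without both Q20 libraries, which enter only the shared spread (0.0594). Across all alternatives the adjusted p ran from 0.00649 to 0.723, the highest with only the WT and KO libraries in the fit. Ttyh1 (-1.47 ± 0.78, adjusted p = 0.494) and Msi1 (-0.80 ± 0.35, adjusted p = 0.377) did not pass. Both genes, and Sox9, were lower in the KO library than in the WT library of the same replicate number, for both numbers. The share of all genes with this order was not counted. Without WT replicate 2 Ttyh1 and Msi1 passed, at -2.68 (adjusted p = 0.0442) and -1.28 (adjusted p = 0.0437), and without WT replicate 1 they were at -0.27 (0.89) and -0.31 (0.697). Vim at 0.47 ± 0.17 (adjusted p = 0.271) and Sox9 at -0.59 ± 0.25 (adjusted p = 0.364) did not pass, and the median change over the 9 members was -0.06, beside 0.03 over all genes.

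The shortest repeat of the series was then set against WT. In Q20 NPC Prom1 rose by 1.8 ± 0.14 (limma adjusted p = 6.3e-05), and it passed under each alternative tried, with adjusted p from 5.51e-05 to 0.0317. It was 1 of 9 members, where 14.5% of all genes passed. Both Q20 libraries were below both WT libraries for Nes (-0.95 ± 0.41, adjusted p = 0.186), for Vim (-0.56 ± 0.17, adjusted p = 0.0677) and for Fabp7 (-0.85 ± 0.32, adjusted p = 0.133), and none of the 3 passed. The share of all genes without overlap was not counted, so these positions are no result about the members. The median change over the 9 members was 0.27, beside -0.02 over all genes. The Nes change depended on WT: it was -1.57 without WT replicate 1 (adjusted p = 0.0214) and -0.33 without WT replicate 2 (0.576), and its adjusted p ran from 0.0214 to 0.576 over the alternatives. Vim passed with edgeR on the recovered reads (adjusted p = 0.0424), and its adjusted p ran from 0.0248 to 0.258 over the alternatives. The Q20 NPC held the most Pou5f1, Nanog (13.0 and 13.7 CPM) and Stmn2 of all NPC libraries. The summed pluripotency list, with 5 of 8 markers in the table, was 106 to 108 CPM there. It was 4.72 to 26.5 CPM in the other NPC libraries. Most of the Q20 sum was Pou5f1. Tdgf1 was also highest in Q20, at 0.683 and 0.568 CPM. Esrrb (0.721 and 0.751 CPM in Q20, up to 7.74 CPM in Q92) and Klf4 (3.19 and 3.83 CPM, up to 18.5 CPM in Q92) were not. The part of cells with these markers in the Q20 values was not tested.

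**Figure D2:**
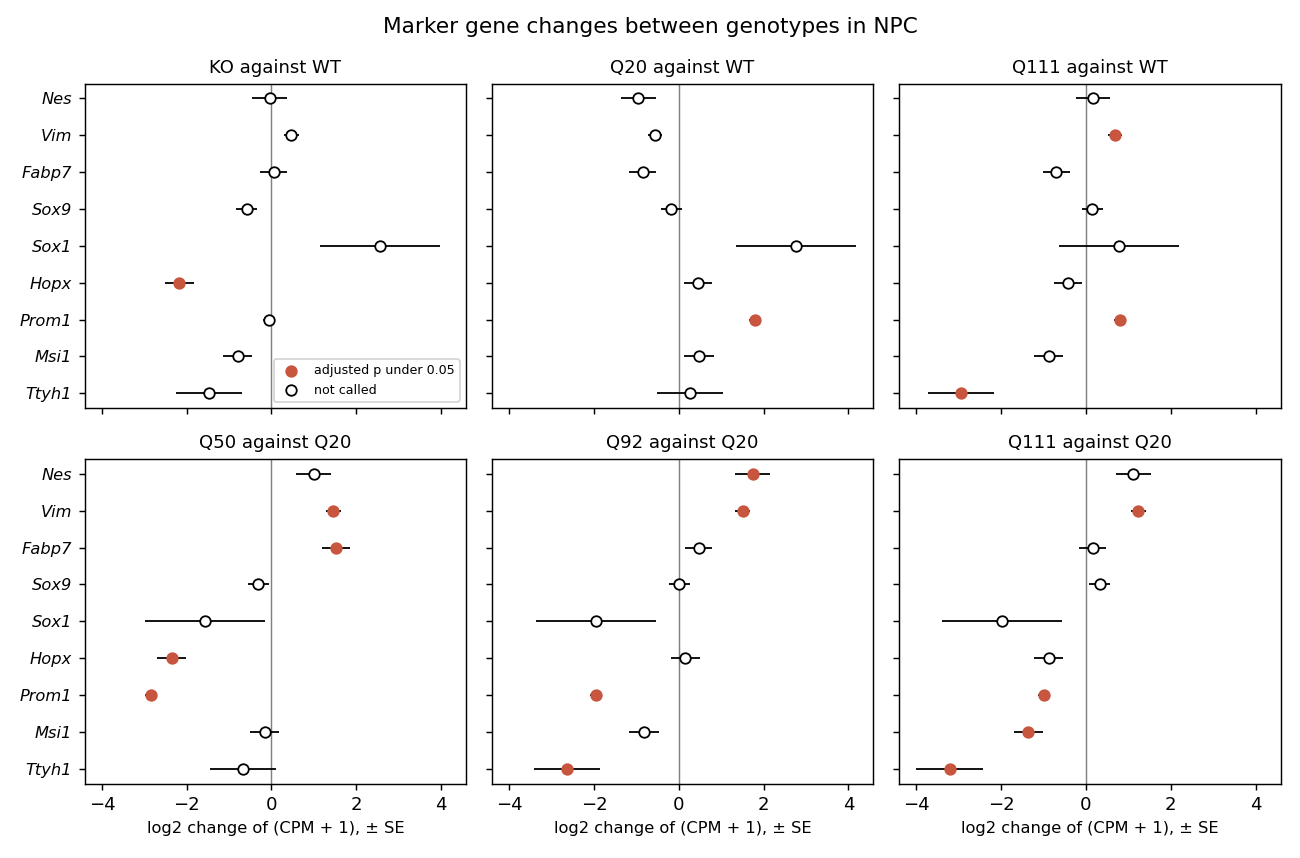
Change of each marker gene in NPC (x axis, log2 of CPM + 1, bars are SE, 2 libraries per group) for 6 comparisons; filled points have a limma adjusted p under 0.05. Vim lies to the right of 0 and Prom1 to the left in each of the 3 comparisons with Q20.

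Q111 NPC differed from WT NPC in 3 members. Vim rose by 0.68 ± 0.17 (limma adjusted p = 0.0316) and Prom1 rose by 0.81 ± 0.14 (adjusted p = 0.00834), while Ttyh1 fell by 2.95 ± 0.78 (adjusted p = 0.0378). The groups did not overlap for any of the 3. Of all genes 16.6% passed. Leaving out Q111 replicate 1 or replicate 2 ended all 3 calls, with adjusted p from 0.0665 to 0.153. Without WT replicate 1 the Vim and Ttyh1 calls were lost (0.128 and 0.156), and without both Q20 libraries they were lost as well (0.0617 and 0.0632), while Prom1 still passed (0.024). The size of the Ttyh1 change also turned on WT, at -1.75 without WT replicate 1 and -4.15 without WT replicate 2. With only the libraries of WT and Q111 in the fit, none of the 3 passed (0.17 to 0.198).

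Against Q20, the longer repeats shared a rise of Vim and a fall of Prom1. These 3 comparisons use the same 2 Q20 libraries and are not independent. In Q50, Vim rose by 1.46 ± 0.17 (limma adjusted p = 0.000607) and Fabp7 rose by 1.52 ± 0.32 (adjusted p = 0.0131). Hopx fell by 2.35 ± 0.34 (adjusted p = 0.00191) and Prom1 fell by 2.85 ± 0.14 (adjusted p = 6.4e-06). These were 4 of 9 members, where 18.8% of all genes passed, and the groups overlapped for none of the 4. The Fabp7 call was lost without Q20 replicate 1 (adjusted p = 0.0797), Q20 replicate 2 (0.0641) or Q50 replicate 1 (0.0871). Vim, Hopx and Prom1 passed under all 10 alternatives tried. The Q50 NPC held the highest sum of fibroblast markers. All 8 in the table summed to 1010 and 1072 CPM there, against 121 to 363 CPM in the other NPC libraries. The sum was led by Col3a1 at 608 and 630 CPM, and Vim is a fibroblast gene too. Thy1 and Fbn1 were higher in KO than in Q50. Thy1 read 3.69 and 1.95 CPM in Q50 and 12.7 and 9.19 CPM in KO. Fbn1 read 134 and 173 CPM in Q50 and 205 and 316 CPM in KO. The part of fibroblast-like cells in the Q50 values was not tested.

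In Q92 against Q20, Nes rose by 1.74 ± 0.41 (limma adjusted p = 0.0164) and Vim rose by 1.51 ± 0.17 (adjusted p = 0.00043). Prom1 fell by 1.95 ± 0.14 (adjusted p = 3.4e-05) and Ttyh1 fell by 2.63 ± 0.78 (adjusted p = 0.0398). The count was 4 of 9, beside 25.8% of all genes. The Nes and Ttyh1 calls were lost when any 1 of the 4 libraries of Q20 and Q92 was left out, with adjusted p of 0.0658 to 0.0909 for Nes and 0.127 to 0.152 for Ttyh1. Vim and Prom1 passed in each of these fits.

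In Q111 against Q20, Vim rose by 1.24 ± 0.17 (limma adjusted p = 0.00137), and 3 members fell: Prom1 by 0.99 ± 0.14 (adjusted p = 0.00146), Msi1 by 1.36 ± 0.35 (adjusted p = 0.023) and Ttyh1 by 3.22 ± 0.78 (adjusted p = 0.0185). These 4 of 9 stand beside 28.3% of all genes. Leaving out any 1 of the 4 libraries of Q20 and Q111 ended the Msi1 call (adjusted p = 0.0552 to 0.133) and the Ttyh1 call (0.0764 to 0.0913), and left Vim and Prom1. Nes, at 1.12 ± 0.41, did not pass (adjusted p = 0.0739).

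Along the knock-in series in NPC, Ttyh1 and Msi1 fell with the length of the repeat and Nes rose. The slope over the 8 knock-in libraries, given as the log2 change from 20 to 111 repeats, was -3.38 ± 0.20 for Ttyh1 (limma adjusted p = 0.000287), -1.34 ± 0.23 for Msi1 (adjusted p = 0.00629) and 1.28 ± 0.38 for Nes (adjusted p = 0.0432). These were 3 of 9 members, where 22% of all genes passed. Without the Q20 line Ttyh1 changed by -3.87 (adjusted p = 0.00525) and Msi1 by -1.72 (adjusted p = 0.0298), while Nes was at 0.41 and did not pass (adjusted p = 0.648). Of 17 alternatives Ttyh1 and Msi1 passed in 16 and Nes in 5. With 89 repeats for the third line the Nes call was lost (limma adjusted p = 0.0502). It was also lost with edgeR on the recovered reads (adjusted p = 0.065) and with the replicate number as a block (limma adjusted p = 0.0672). The exception for Ttyh1 and Msi1 was a fit on 1 mean per line, which treats the 4 lines as the sample: the adjusted p was then 0.295 for Ttyh1, 0.308 for Msi1 and 0.374 for Nes, and no gene of the table passed. At an unadjusted p under 0.05 this fit counted 3 of the 9 members, beside 13.9% of all genes.

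Prom1 and Fabp7 did not follow the repeat in one direction. Prom1 was highest at 20 repeats, lowest at 50, and higher again at 92 and 111, with a slope of -0.66 ± 0.92 (limma adjusted p = 0.649). Without the Q20 line its slope was 2.64 (adjusted p = 0.0118). Fabp7 was highest at 50 repeats and its slope was -0.18 ± 0.55 (adjusted p = 0.844), or -2.08 without the Q20 line (adjusted p = 0.0138). Vim had a slope of 1.12 ± 0.42 (adjusted p = 0.0902), and -0.25 without the Q20 line (adjusted p = 0.64).

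**Figure D3:**
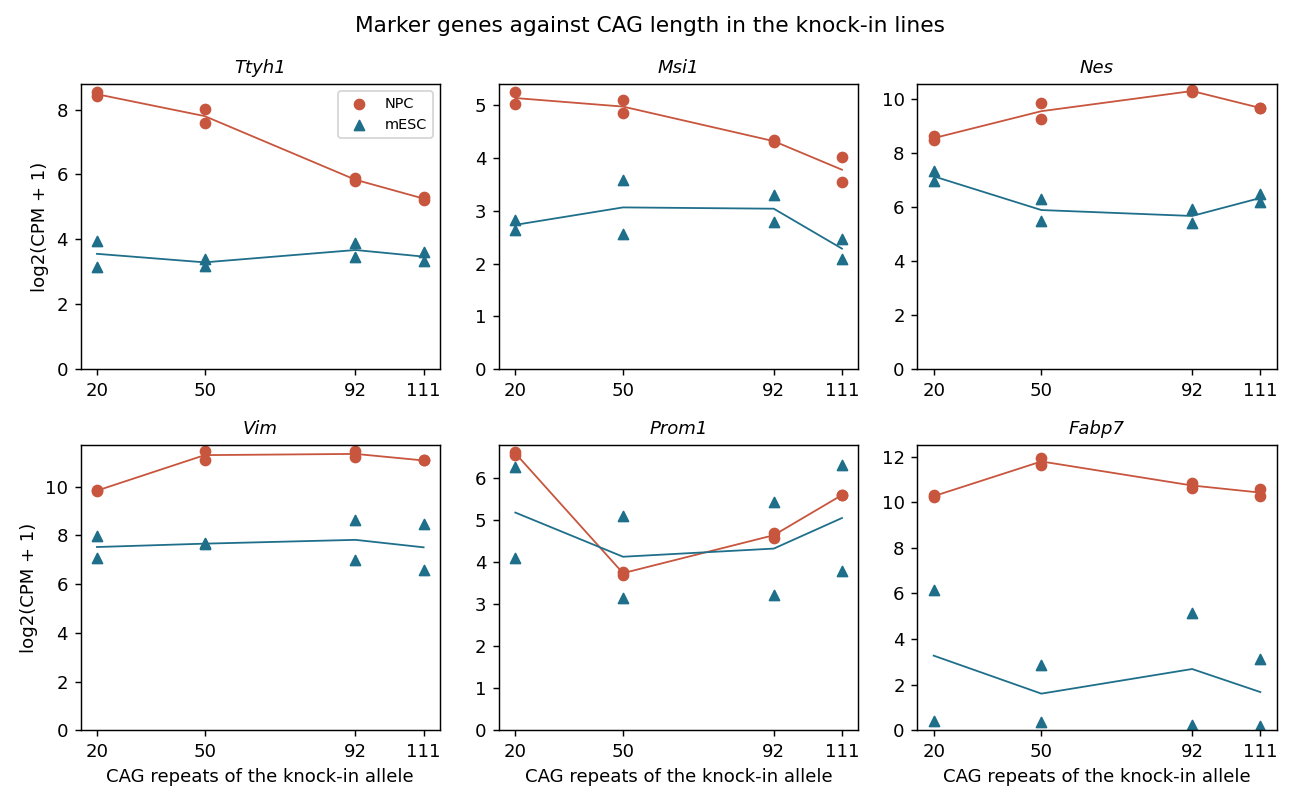
Level of 6 marker genes (y axis, log2 of CPM + 1) against CAG repeats of the knock-in allele (x axis, 20 to 111), with single libraries as points and lines through the means of 2; the cell types were normalised separately. Ttyh1 in NPC steps down at each longer repeat, while in mESC it stays between 7.90 and 14.5 CPM.

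The summed level of astrocyte markers was also lower in Q92 and Q111 than in Q20 and Q50, but its members did not all do the same. The 8 astrocyte genes, all in the NPC table, summed to 2746 and 2382 CPM in Q20, 1779 and 1180 in Q50, 348 and 556 in Q92, and 291 and 278 in Q111, with WT at 2144 and 1276 and KO at 1457 and 918. The glutamate transporter gene Slc1a2 read 515 and 440 CPM in Q20 and 35.4 and 37.4 CPM in Q111, and 532 and 123 CPM in the 2 WT libraries, high in the replicate in which Ttyh1 was high. The water channel gene Aqp4, also on the astrocyte list, was above 0 in every NPC library. It ran from 2.80 CPM in Q111 replicate 1 to 253 CPM in Q20 replicate 1. Aldoc, a glycolytic aldolase, read 1244 and 1091 CPM in Q20 and 102 and 97.4 CPM in Q111. Aldh1l1 did not follow the repeat, at 235 and 215 CPM in Q20, 23.7 and 30.4 in Q50, 3.75 and 4.10 in Q92, and 137 and 131 in Q111. Gfap was 43.1 and 27.8 CPM in Q20 and 72.9 and 35.3 CPM in Q50, and Gja1 differed within lines, at 304 and 4.67 CPM in Q50 and 1.95 and 205 CPM in Q92. The part of astrocyte-like cells in the Ttyh1 result was not tested.

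Asked of all 6 NPC genotypes at once, 6 of 9 members differed between genotypes beyond the spread of the replicates, beside 38% of all genes (limma F test). The adjusted p was 3.26e-05 for Prom1, 0.00119 for Hopx, 0.00136 for Vim, 0.038 for Fabp7, 0.0415 for Ttyh1 and 0.0484 for Msi1. Nes (0.095), Sox9 (0.183) and Sox1 (0.457) did not pass. Without both Q20 libraries, Prom1 (0.00276), Hopx (0.0067) and Vim (0.0447) passed and Fabp7 (0.121), Ttyh1 (0.113) and Msi1 (0.145) did not. Each of the 8 knock-in libraries, when left out alone, also ended the Fabp7, Ttyh1 and Msi1 calls, with adjusted p of 0.0733 to 0.132. For Msi1 leaving out KO replicate 2 did so as well (0.0693).

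**Figure D4:**
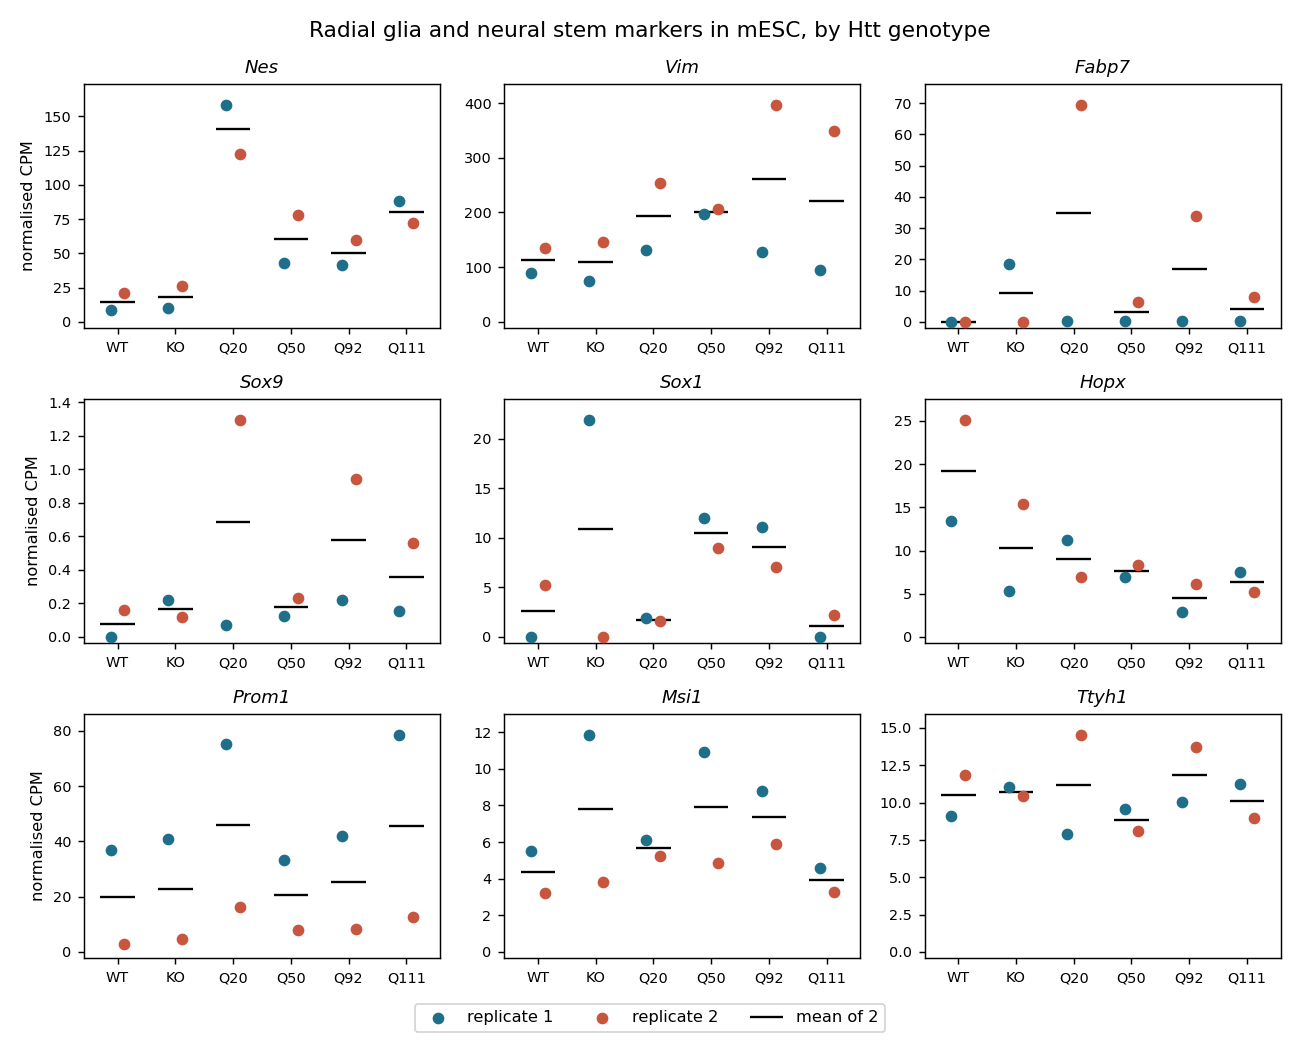
Normalised CPM (linear axes, 1 panel per gene) of the 9 marker genes in mESC by Htt genotype; points are single libraries, coloured by replicate number, and bars are means of 2. Nes is above 41 CPM in all 8 knock-in libraries and at most 26.0 CPM in WT and KO, and Prom1 is higher in replicate 1 than in replicate 2 of every genotype.

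In mESC, Nes was the member that set the knock-in lines apart. It read 8.42 and 21.2 CPM in WT and 10.1 and 26.0 in KO, against 158 and 123 in Q20, 43.1 and 78.2 in Q50, 41.5 and 59.7 in Q92, and 88.2 and 71.8 in Q111. Every knock-in library was above every WT and KO library. Q20 lay above the other 3 knock-in lines, of which Q50 overlapped both Q111 and Q92, while Q92 lay below Q111. The change from WT was 3.28 ± 0.53 in Q20 (limma adjusted p = 0.0503) and 2.48 ± 0.53 in Q111 (adjusted p = 0.121), so neither passed.

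Replicate numbers paired the mESC libraries, as described with the processing, and a fit with the replicate number as a block passed both, at adjusted p = 0.00859 for Q20 and 0.0194 for Q111. In that fit 10.6% of all genes passed in Q20 against WT and 7.42% in Q111 against WT. Over all 10 alternatives the adjusted p of Nes ran from 0.00859 to 0.376 for Q20 and from 0.0194 to 0.573 for Q111. Some fibroblast markers were also higher in the knock-in mESC. Col1a2 read 17.5 to 31.4 CPM there and 0.808 to 2.60 CPM in WT and KO. The 7 fibroblast markers in the table, of 8, summed to 52.0 to 93.4 CPM against 19.3 to 31.7 CPM. Thy1 was not higher, at 9.66 and 11.3 CPM in WT and 9.16 and 4.37 CPM in Q111. Fbn1 overlapped, at 8.27 and 17.3 CPM in WT and 10.2 and 21.7 CPM in Q111. Col3a1 overlapped too, at 2.72 CPM in KO replicate 1 and 2.32 CPM in Q111 replicate 1. The part of feeder cells in the Nes difference was not tested, and whether WT and KO were grown on the same feeder layer is not given in the sources used here.

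Prom1 in mESC followed the replicate number. It read 36.8 and 2.78 CPM in WT, 40.8 and 4.52 in KO, 75.4 and 16.2 in Q20, 33.4 and 7.87 in Q50, 42.1 and 8.27 in Q92, and 78.4 and 12.8 in Q111. Replicate 1 was above replicate 2 in all 6 genotypes. With the replicate block Prom1 was higher in Q20 than in WT by 1.60 (limma adjusted p = 0.0257) and in Q111 by 1.47 (adjusted p = 0.0373), and without the block it did not pass (0.745 and 0.821). Without the block and without WT replicate 2 the changes were -0.06 and -0.19.

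Fabp7, the most abundant member per kb in NPC, was near the floor in WT mESC at 0.0824 and 0.0885 CPM. It read 18.5 and 0 CPM in the libraries labelled KO, 0.326 and 69.3 in Q20, 0.277 and 6.25 in Q50, 0.186 and 33.9 in Q92, and 0.152 and 7.84 in Q111. In each knock-in line replicate 2 was the high library. All 8 knock-in libraries were above both WT libraries, the knock-in lines overlapped one another, and KO overlapped every group. The change from WT was 3.15 ± 2.27 in Q20 (limma adjusted p = 0.645). Olig1, a gene of the oligodendrocyte lineage, was highest in 3 of the same libraries, at 21.2 CPM in Q20 replicate 2, 10.9 CPM in Q92 replicate 2 and 5.31 CPM in the library labelled KO replicate 1, and Slc1a2 read 5.80, 2.93 and 1.63 CPM in these 3. The part of differentiating cells in the Fabp7 values was not tested.

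For the other mESC members no difference between genotypes passed. Vim read 74.2 to 396 CPM, from the lowest at KO replicate 1 to the highest at Q92 replicate 2, and neighbouring genotypes in order of the mean overlapped. Hopx was highest in WT at 13.4 and 25.1 CPM and read 2.92 to 15.3 CPM elsewhere, and its change in Q111 against WT was -1.41 ± 0.53 (limma adjusted p = 0.35). Ttyh1 stayed between 7.90 and 14.5 CPM and Msi1 between 3.22 and 11.8 CPM. Sox1 ran from 0 in 3 libraries to 21.9 CPM in the library labelled KO replicate 1. Sox9 did not reach 1 CPM in 2 libraries and was not tested; its highest value was 1.29 CPM, in Q20 replicate 2.

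Of the 8 members tested in mESC, none passed in any of the 8 comparisons, either with limma or with edgeR on the recovered reads. At an unadjusted p under 0.05, limma counted 0 in KO against WT, 1 in Q20 against WT, 2 in Q111 against WT, 1 in Q50 against Q20, 1 in Q92 against Q20, 0 in Q111 against Q20, 0 for the slope and 1 in the F test. The share of all 13916 genes at that unadjusted threshold was 3.97%, 12.3%, 11.2%, 6.37%, 5.37%, 2.69%, 2.57% and 9.91% in the same order. With the adjusted p the shares that passed were 0.0144% for KO against WT, 0.323% for Q20 against WT, 0.316% for Q111 against WT, 0.00719% for Q50 and for Q92 against Q20, 0% for Q111 against Q20 and for the slope, and 0.201% in the F test. With the block Nes also passed the F test (limma adjusted p = 0.0191), where 8.67% of all genes did.

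**Figure D5:**
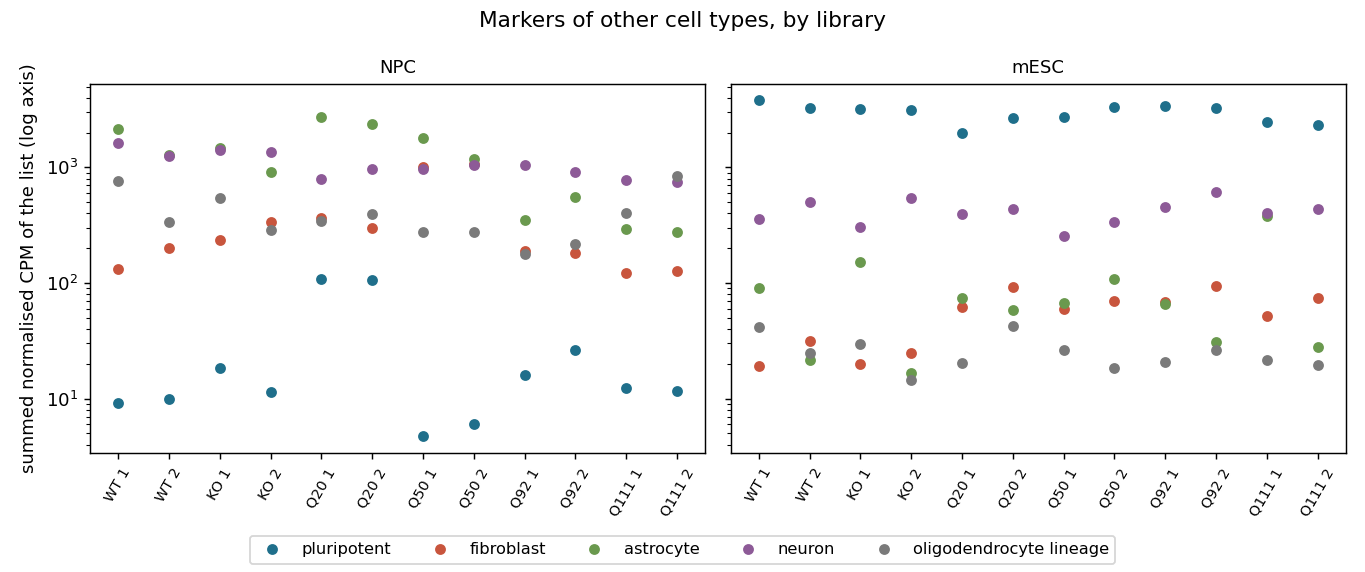
Summed normalised CPM (log axis) of marker lists of 5 other cell types in each NPC library (left) and each mESC library (right), lists as named in the legend. In NPC the pluripotency sum is above 100 CPM in the 2 Q20 libraries and below 27 CPM in the others, and the astrocyte sum is lowest in Q111.

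Other neural stem and radial glia genes were measured beside the members, from a list of 23 of which 21 were tested in NPC. In KO against WT 1 passed, Dach1 at -1.22, named after its value was seen. In Q20 against WT 5 passed, 1 higher and 4 lower, among them the matrix protein gene Tnc at -2.72 ± 0.32 (limma adjusted p = 0.000722). Tnc averaged 4673 CPM in WT and 674 CPM in Q20. In Q111 against WT 5 passed, 2 higher and 3 lower, with the LIM homeobox gene Lhx2 at -1.82 and Tnc at -1.48. Of all genes 1.42% passed in KO, 14.5% in Q20 and 16.6% in Q111 against WT. The list's median change was -0.43 in KO, -0.53 in Q20 and -0.82 in Q111 against WT, beside 0.03, -0.02 and 0.02 over all genes.

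Against Q20, 7 of the 21 passed in Q50 (5 higher, 2 lower), 7 in Q92 (3 higher, 4 lower) and 3 in Q111 (2 higher, 1 lower). Of all genes 18.8%, 25.8% and 28.3% passed in the same order. Tnc rose in all 3, by 2.20, 2.95 and 1.23. Nr2e1, the orphan receptor Tlx of neural stem cells, averaged 0.104 CPM in Q20 and 5.51 CPM in Q50. The Notch target Hes5 changed by -4.44 and the endothelin receptor gene Ednrb by -4.25 in Q92. With the length of the repeat 2 of the 21 passed, where 22% of all genes did. Both fell, Hes5 at -3.68 and the helix-loop-helix inhibitor Id4 at -1.79. In the F test 10 of the 21 passed, beside 38% of all genes. In mESC 14 of the 23 were tested and none passed with limma in any comparison. At an unadjusted p under 0.05 there were 0 to 4, beside 2.57% to 12.3% of all genes.

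Relatives of the members, a list of 14 SOX, intermediate filament, fatty acid binding, tweety, prominin and Musashi genes of which 12 were tested in NPC and 2, Sox2 and Sox3, are also in the list above, gave 1 call in KO against WT, the tweety gene Ttyh3 at -1.27. In Q20 against WT 3 passed, all higher: the astrocyte filament gene Gfap, which is also in the astrocyte list, at 4.00 ± 0.52, the muscle filament gene Des at 3.17 and Synm at 1.10. Gfap averaged 1.29 CPM in WT, 35.5 in Q20, 54.1 in Q50, 0.138 in Q92 and 2.63 in Q111. In Q111 against WT Fabp5 passed, at 0.92. Against Q20, 2 passed in Q50 (1 higher, 1 lower), 4 in Q92 (all lower) and 6 in Q111 (1 higher, 5 lower). Ttyh2 fell with Ttyh1, by 1.84 in Q92 and by 1.47 in Q111. With the length of the repeat Gfap, Des and Ttyh2 passed, all falling, Ttyh2 by 1.55. The shares of all genes that passed in these NPC comparisons are those given with the list above. In mESC 12 relatives were tested and none passed with limma. At an unadjusted p under 0.05 there were 0 to 3, beside 2.57% to 12.3% of all genes.

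The 4 members whose log2 level ranged over more than 2 in NPC were set against every other tested gene, by the root mean square difference of centred log2 levels over the 12 NPC libraries. Prom1 was nearest to Tspan2 (0.24) and Fggy (0.31), where the median over all genes was 0.98. Ttyh1 was nearest to Pygb (0.37) and Timp3 (0.38), with a median of 1.43. Hopx was nearest to Jmjd8 (0.61) and 2610318N02Rik (0.61), with a median of 1.18, and Sox1 to Rtn4rl1 (1.08) and Senp8 (1.10), with a median of 1.60.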

How the data were processed

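RNA-seq of 12 mESC and 12 NPC libraries was analysed from the 2 deposited tables, 1 per cell type. The submitters' processing notes name CASAVA 1.8, STAR and GRCm38.p6, with no role given. The values, which the authors name CPM, are a normalised signal whose column totals ran from 900342 to 1080734, and 100% of deposited values are whole multiples of 1 read within 0.001 reads, so read counts were recovered. Genes with at least 1 CPM in 2 libraries were kept (13916 in mESC, 13206 in NPC). The main test was limma 3.58.1 in R 4.3.3 on log2(CPM + 1), with group means over the 12 libraries of a cell type and a variance trend. It was planned for CPM and kept for this unit. Benjamini-Hochberg adjustment ran over all genes kept. edgeR 4.0.16 on the recovered reads, and fits without both Q20 NPC libraries, were alternatives chosen after seeing the data. The limma and edgeR fits were run on simulated counts with the same dispersion for every gene and no replicate effect. These runs do not show how the fits perform at the spread of the real libraries, or where replicate numbers pair them.

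Differences between replicates 1 and 2 correlated across genes between all 15 pairs of mESC groups (0.25 to 0.547), so the replicate numbers given in the titles pair those libraries. In NPC it was over 0.1 for 3 of 15 pairs, WT with KO (0.467), WT with Q50 (0.17) and KO with Q50 (0.106), so the numbers were not taken to pair the NPC libraries as a whole. Gene coordinates are from GENCODE on GRCm38. Every member with a row is named; for each list the text names up to 3 passing genes with the largest change among those at 5 CPM or more. The members and lists were chosen with earlier results of these data known.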

Additional observations from a re-analysis of the deposited data

Results flagged for a closer look

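The 8 members tested in both cell types were examined in 6 comparisons between genotypes. For 8 pairs of gene and comparison, both libraries of the first genotype lay on one side of both libraries of the second in mESC and on the opposite side in NPC. The share of such pairs over all genes was not counted, so the number is no result about the members. The values are NPC minus mESC differences of the log2 change; these differences were not tested, since the tables were normalised separately. Nes accounts for 4 of them. Its change in Q20 against WT was 3.28 in mESC and -0.95 in NPC, a difference of -4.23. Against Q20 it was -1.25 in mESC and 1.00 in NPC for Q50 (2.24), -1.47 and 1.74 for Q92 (3.21), and -0.80 and 1.12 for Q111 (1.92). These 4 share the same Q20 libraries. Fabp7 differed by -4.01 in Q20 against WT (3.15 in mESC, -0.85 in NPC) and by -2.25 in Q111 against WT (1.56 and -0.70). Sox1 differed by -3.81 in Q92 against Q20 (1.85 and -1.96), and Hopx by 1.05 in the same comparison (-0.89 and 0.16). In mESC no value here passed the test without the replicate block, and in NPC the Nes change in Q92 against Q20 did.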

How the results depend on the processing

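Another pseudocount and median-of-ratios scaling changed no call of a member in either cell type. Without the filter on low values 2 NPC calls were lost, and with edgeR 1 was gained and 2 were lost. Counts of members that passed in NPC, with 1 library left out in turn, ran from 0 to 3 for KO against WT, 1 to 3 for Q20 against WT, 0 to 4 for Q111 against WT, 3 to 4 for Q50 against Q20, 2 to 2 for Q92 and for Q111 against Q20, 2 to 4 for the slope and 3 to 7 in the F test; in mESC all were 0. The share of all genes moved too, in the same order from 0.81% to 11.9%, 7.68% to 21.6%, 4.2% to 38.5%, 9.53% to 10.8%, 12.3% to 14.3% (Q92), 11.9% to 14.2% (Q111), 9.19% to 21.9% and 23.9% to 59.1%. With only the libraries of both groups in the fit, NPC counts were 0 for KO against WT, 2 for Q20 against WT, 0 for Q111 against WT and 7 for Q111 against Q20, beside 0%, 3.6%, 0% and 50.8% of all genes. edgeR gave 2 for Q20 against WT (11.4% of all genes). Without both Q20 libraries the counts were 0 for KO against WT, 1 for Q111 against WT and 3 in the F test, beside 0.454%, 11.5% and 19.8% of all genes. With 1 mean per line the slope gave 0. The cause of these shifts was not tested. A fit with libraries left out differs both in how many libraries it holds and in which ones.

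With the replicate block, mESC counts were 2 for Q20 against WT, 2 for Q111 against WT and 1 in the F test, and no other mESC call changed. In NPC, where WT and KO deviated together (0.467) but 12 of 15 pairs of groups did not, the block gave 2 for the slope, 5 for Q111 against Q20 and 7 in the F test, and left the other counts as they were; for KO against WT its adjusted p was 0.374 for Ttyh1, 0.337 for Msi1 and 0.269 for Sox9.

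Reversals are listed only for a member and comparison that passed under at least 1 setting, main or alternative. Changes that never passed were not searched, and some of them may reverse too. Reversed changes were Prom1 in mESC without WT replicate 2 (-0.060 for Q20 and -0.19 for Q111 against WT, with single libraries left out reaching 3.26 and 3.13) and Hopx in NPC without WT replicate 1 (-0.094 for Q20 against WT, range up to 1.00). Slopes in NPC reversed for Vim without the Q20 line (-0.25), for Prom1 without the Q20 line (2.64), without Q20 replicate 1 (0.058) and without Q20 replicate 2 (0.10, range from -1.09), and for Fabp7 without the Q111 line (0.41), without Q50 replicate 1 (0.035) and without Q111 replicate 1 (0.077, range from -0.63). None of these changes had passed in the main fit. With 2 libraries per group, several calls rest on single libraries.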
